A study of Schizosaccharomyces pombe with 27 samples.

Results

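The wild-type (WT) Polα and Polε strains of the fission yeast *Schizosaccharomyces pombe* are compared here by the strand on which each polymerase left ribonucleotides. They were chosen by strain and not by any measured value, and they account for 6 of 27 samples, 4 of 18 libraries and 2 of 9 strains. The Polα strain, 1141, carries pol1 L850F, a mutated catalytic subunit of Polα. The Polε strain, 655, carries cdc20 M630F, a mutated catalytic subunit of Polε. Both are h- and share rnh201::kanR, ura4-D18 and leu1-32, and each has an ade6 allele, which is not specified for 655. Both were grown untreated in YES, a rich medium, and harvested as exponentially growing cultures, and both have the normal gene dosage of Polδ. Neither strain has RNase H2 activity, because rnh201 is deleted in both, so all values come from cells that cannot remove single ribonucleotides by the usual route. Each strain was measured in experiments 1 and 2. Experiment 1 was sequenced in 2 runs, which were summed. The labels name a standard and a modified library procedure without saying which experiment used which, so experiment and procedure cannot be told apart. The study's methods treat the experiments as independent biological repeats without describing how the cultures were started, and p-values measure the spread between these libraries.

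Polymerase usage sequencing (Pu-Seq) reads the division of labour at the fork from ribonucleotides. DNA synthesis runs in one direction only, so the leading strand is made continuously, mainly by Polε, and the lagging strand is made as Okazaki fragments. Each Okazaki fragment is started by the Polα-primase complex, which lays down an RNA primer and a short stretch of DNA before Polδ takes over. A mutated polymerase that inserts ribonucleotides too often marks the strand that it made, and without RNase H2 the marks stay. In cells of this kind, Polα marks are found on the lagging strand and Polε marks on the leading strand. At an origin a pair of forks leaves in opposite directions, so the strands swap roles there.

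The polymerase track was calculated in each 300 bp bin as the excess of top-strand over bottom-strand counts relative to all counts of the bin. It runs from -1, with every count on the bottom strand, to 1, with every count on the top strand. Polα libraries held 38620929 counts in experiment 1 and 16062711 in experiment 2, and Polε libraries 34475309 and 22947149. The median bin held 872 and 379 counts in Polα libraries, against 761 and 542 in Polε libraries. In all 4 libraries between 50.03% and 50.15% of the counts lay on the top strand. Of 41908 bins, 41864 had at least 10 counts in every library and were tested. The runs of experiment 1 were close to sampling noise (chi-square over degrees of freedom of 1.10 for Polα and 1.10 for Polε), whereas experiments 1 and 2 gave 24.5 for Polα and 40.5 for Polε. The deletions that both strains share were checked at the markers. This check cannot tell the strains apart, and counts per bin cannot show the point mutations. Bins 2254801 to 2255400 of chromosome I, inside rnh201, held 0 counts in all 4 libraries. The bins of ura4 on chromosome III held at most 8 counts each. One library stood apart. The Polε library of experiment 2 had a mean track height of 0.457 beside efficient origins, whereas the 5 other Polε libraries of the series, of WT, 2×Polδ and 4×Polδ, lay between 0.604 and 0.637. Some of the results below are also given without it, but not all.

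Polα and Polε tracks mirrored each other, with the sign of the track opposite in most of the genome. Over single 300 bp bins, and with the experiments averaged, the tracks had opposite signs in 76.7% of bins (32102 of 41864), and Pearson's r across bins was -0.69. Both polymerases were on the top strand in 4773 bins and both on the bottom strand in 4986. The r was -0.68 in experiment 1 and -0.49 in experiment 2, the experiment of the Polε library that stood apart. The 2×Polδ strains gave -0.76 in experiment 1 and -0.70 in experiment 2, and the 4×Polδ strains -0.68 in experiment 1 and -0.69 in experiment 2, so WT experiment 2 was the least mirrored of the 6 pairs. Smoothing brought the experiments together, since with a moving average of 9 bins (2.7 kb) r was -0.90 in each and -0.91 for their mean. Neighbouring bins share forks, reads and base composition, so these correlations describe the 41864 bins and have no p-value.

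**Figure D1:**
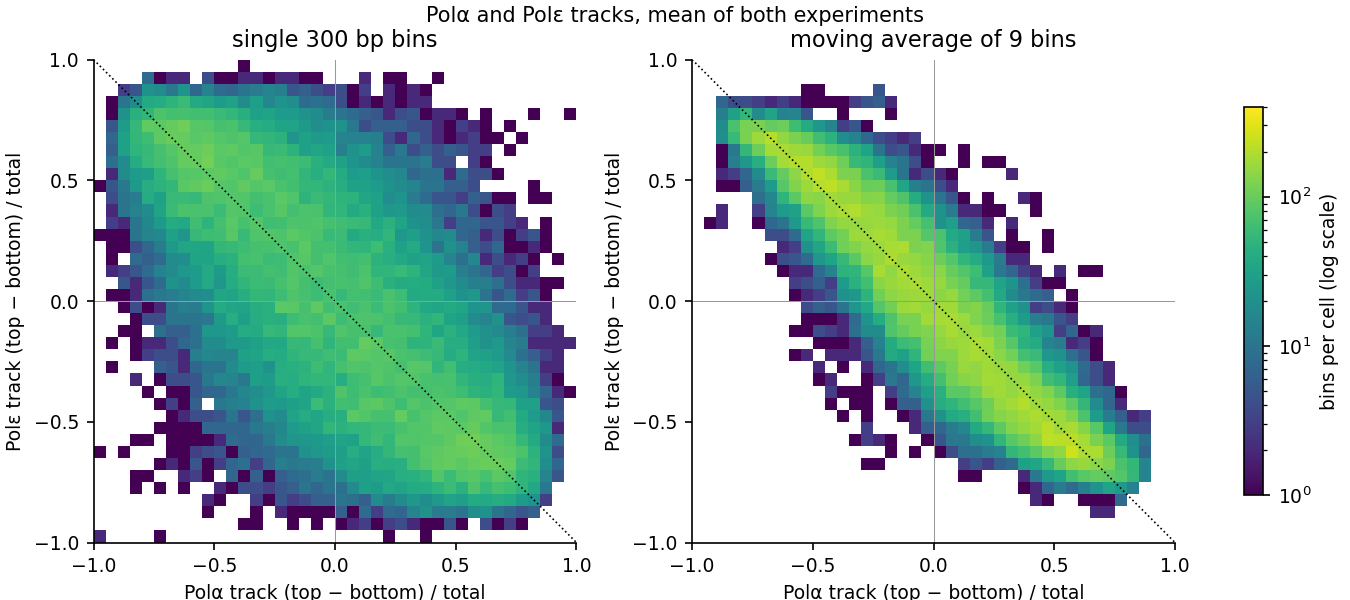
Polα track (x axis, -1 to 1) against Polε track (y axis, -1 to 1) in 41864 bins, means of both experiments, for single bins (left panel) and for a moving average of 9 bins (right panel). The colour gives the number of bins. The cloud runs from the upper left to the lower right and narrows with smoothing, with r of -0.69 and -0.91.

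How closely the tracks mirrored depended on how far forks ran one way. The WT Polδ track, smoothed over 9 bins and taken from libraries that are not compared here, was used to grade bins by net fork direction. Where its size was below 0.1, Polα and Polε tracks had opposite signs in 40.1% of 6689 bins. The share was 72.9% at 0.2 to 0.3, 94.3% at 0.4 to 0.5 and 99.6% in the 7021 bins at 0.6 or above. Track heights, meaning the track turned so that the expected strand of each polymerase is positive, followed the same grading. In the bins at 0.6 or above, the mean height was 0.673 in experiment 1 and 0.651 in experiment 2 for Polα, against 0.714 and 0.526 for Polε. Below 0.1 the heights were 0.050 and 0.047 for Polα and 0.074 and 0.055 for Polε. Polα was lower than Polε in every grade of experiment 1. In experiment 2 it was lower in both grades below 0.2 and higher in all grades from 0.2 upward. Polα and Polδ tracks of one experiment correlated at r = 0.97 and 0.96 across bins, whereas Polε and Polδ tracks correlated at r = -0.70 and -0.51.

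To locate strand differences, the strand ratio of Polα was tested against that of Polε in each bin (edgeR's quasi-likelihood test, Benjamini-Hochberg adjustment over 41864 bins, threshold 0.05). The ratios differed in 27252 bins, 65.1% of those tested, of which 13663 had Polα further toward the top strand and 13589 had it further toward the bottom strand. In 12999 of these bins Polα was on the top strand and Polε on the bottom, and in 12989 the strands were the other way round. In the remaining called bins both tracks had one sign or a track was 0. The call rate was 24.4% where the Polδ track was within 0.2 of 0, 65.7% at 0.2 to 0.4 and 96.5% from 0.4 upward. All but 1 of the called bins had the same direction in both experiments, as had 94.6% of all bins tested. Without the Polε library of experiment 2, 28670 bins were called. By annotation, 66.9% of bins over protein-coding genes were called, 61.0% of those over tRNA genes and 47.6% of those over long terminal repeats.

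The 5 bins with the smallest adjusted p all had an adjusted p of 0.000362 (edgeR). In bin 5157301 to 5157600 of chromosome I, over a protein-coding gene with no symbol, the Polα libraries held 96 top-strand and 961 bottom-strand counts in experiment 1 and 41 and 311 in experiment 2. The Polε libraries held 798 top-strand and 47 bottom-strand counts there in experiment 1 and 994 and 43 in experiment 2. The preference was thus for opposite strands in every library, and the log2 ratio of top to bottom counts was lower by 7.44 in Polα than in Polε (SE 0.45). In bin 4327801 to 4328100 of chromosome I, over ani2, the Polα tracks were -0.883 and -0.909 and the Polε tracks 0.720 and 0.748. In bin 2651701 to 2652000 of chromosome I, over spp42, which encodes a core component of the U5 splicing complex, the Polα tracks were -0.805 and -0.768 against 0.863 and 0.839 for Polε. The reverse orientation was found in bin 1264201 to 1264500 of chromosome II, over noncoding RNA genes, with Polα at 0.935 and 0.921 and Polε at -0.648 and -0.679. It was also found in bin 3947401 to 3947700 of chromosome I, over ppx1, an exopolyphosphatase gene, with Polα at 0.765 and 0.742 and Polε at -0.855 and -0.844.

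Genes of the replicative polymerases, together with marker and control genes, show how this looks along named loci. Of the 15 genes that are not deleted in both strains, 13 had Polα and Polε tracks of opposite sign in both experiments. These tracks pool all bins of a gene. Among all bins tested, with the experiments averaged, signs were opposite in 76.7% of single bins. With moving averages of 3 and 9 bins the shares were 84.0% and 87.7%. In the strand test, 101 of 134 bins over these genes were called, beside 65.1% of all bins tested. At ade6, a purine synthesis gene on chromosome III (1316281 to 1318035), the Polα track was 0.805 in experiment 1 and 0.781 in experiment 2, against -0.827 and -0.670 for Polε. All 7 of its bins were called. Over act1, the actin gene on chromosome II (1475485 to 1477333), forks ran the other way, with Polα at -0.642 and -0.613 and Polε at 0.747 and 0.640. Among the Polα-primase genes, spb70, encoding the B subunit, had all 9 bins called, with Polα at -0.643 and -0.657 and Polε at 0.746 and 0.566. The large primase subunit gene spp2 was less symmetric. Its Polα track was 0.146 and 0.204 and its Polε track -0.656 and -0.513, and all 7 bins were called. The catalytic primase gene spp1 had tracks of 0.269 and 0.205 for Polα and -0.099 and -0.059 for Polε, with 2 of 7 bins called. The Polα catalytic gene pol1 itself lay where neither polymerase preferred a strand, with Polα at 0.040 and -0.014 and Polε at -0.077 and -0.088, and 1 of its 19 bins was called.

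Of the Polε genes, the catalytic subunit gene cdc20 had 23 of 25 bins called, with Polα at -0.503 and -0.469 and Polε at 0.439 and 0.358. The accessory subunit genes dpb2 and dpb4 had all 8 and all 5 bins called. At dpb2 the Polα track was 0.366 and 0.475 and the Polε track -0.648 and -0.455. At dpb4 they were -0.750 and -0.653 for Polα and 0.761 and 0.598 for Polε. The small gene dpb3 had 1 of 3 bins called, and its tracks moved between experiments, with Polα at 0.067 and 0.351 and Polε at -0.247 and -0.037. Of the Polδ genes, cdc6, cdc1 and cdm1 had all of their 17, 6 and 3 bins called. None of the 6 bins over cdc27, a regulatory subunit gene, was called, and there the Polε track was -0.018 in experiment 1 and 0.181 in experiment 2, against -0.356 and -0.265 for Polα.

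The next question was in which bins the tracks were not mirror images. For this test the strands of Polε were exchanged, so that a bin was called where the strand ratio of Polα differed from the inverse ratio of Polε. Of 41864 bins, 1643 were called, or 3.92% (edgeR's quasi-likelihood test, Benjamini-Hochberg adjustment). In 782 both polymerases together leaned toward the top strand and in 861 toward the bottom strand, and in all 1643 the lean had one sign in both experiments, as had 64.8% of all bins tested. Both mean tracks were on the top strand in 497 called bins and on the bottom strand in 522. The other 624 had opposite signs with unequal heights, and in 486 of these Polε was the larger and in 138 Polα. The lowest adjusted p was 0.0453, close to the threshold. The count moved when single libraries were left out. It ran from 49 without Polα of experiment 2 to 8605 without Polε of experiment 1, and was 331 without Polα of experiment 1 and 8225 without Polε of experiment 2. With 18 libraries in the fit, 12441 bins were called, among them 1640 of the 1643.

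Non-mirrored bins were found in every annotation class. They made up 3.97% of bins over protein-coding genes, 6.01% of those over long terminal repeats (28 of 466), 3.03% of those without a gene and 7.14% of those in the outer 30 kb of chromosomes (43 of 602), beside 3.92% of all bins tested. Within 0.9 kb of an efficient origin the share was 2.68% (47 of 1752). The handling of reads that map to several places is not given in the sources used here, so repeats and chromosome ends may hold reads of other copies. Base composition differed with the direction of the lean. Called bins that leaned to the top strand had on average 9.57 percentage points more A and C than G and T on the top strand, whereas in those that leaned to the bottom strand the same excess was -8.87 points. Across all bins, too, the lean shared by both tracks moved with this excess, as given below. Called bins were not compared with uncalled bins of the same lean.

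Both polymerases left most of their ribonucleotides on one strand in the named bins. In bin 1497601 to 1497900 of chromosome I, over mug86, Polα libraries held 286 top-strand and 1017 bottom-strand counts in experiment 1 and 140 and 520 in experiment 2. Polε libraries held 192 and 1089 in experiment 1 and 178 and 806 in experiment 2, so both polymerases lay mostly on the bottom strand. In bin 2122501 to 2122800 of chromosome II, over rpt6, a proteasome ATPase gene, the Polα tracks were -0.711 and -0.659 and the Polε tracks -0.651 and -0.662. In bin 2151601 to 2151900 of chromosome I, over mpn1, an exonuclease gene of U6 RNA processing, both polymerases were on the top strand, with Polα at 0.555 and 0.537 and Polε at 0.632 and 0.640. In bin 5087101 to 5087400 of chromosome I, over noncoding RNA genes, the Polα tracks were -0.436 and -0.231 and the Polε tracks -0.925 and -0.875. The fifth was the last bin of chromosome III, from 2452801, of which 83 bases lie within the reference chromosome, over an rRNA gene. There Polα libraries held 0 top-strand counts in both experiments against 3005 and 1086 bottom-strand counts, and Polε libraries held 0 and 4 against 450 and 329.

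The track was therefore split into a part that differs between the polymerases (the difference track, Polα minus Polε divided by 2) and a part that they share (the sum track, Polα plus Polε divided by 2). The difference track was nearly the same in both experiments, with r = 0.98 across 41864 bins and an SD of 0.446 in experiment 1 and 0.386 in experiment 2. The sum track had an SD of 0.197 and 0.227, and correlated between experiments at r = 0.38. It was much closer to the sum track of other genotypes within an experiment. WT correlated with 2×Polδ at r = 0.91 and with 4×Polδ at r = 0.95 in experiment 1, and at 0.84 and 0.83 in experiment 2. These are different strains and libraries but share the sequence of each bin and the experiment.

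Base asymmetry between the strands differed in its relation to the tracks of Polα and Polε. Bins were ordered by the excess of G over C on the top strand and divided into deciles. In the decile with the highest excess of G, the Polα track averaged 0.013 and 0.022 in experiments 1 and 2, and in the decile with the highest excess of C, -0.022 and -0.026. The Polε track averaged -0.133 and -0.239 where G was in excess and 0.128 and 0.239 where C was in excess. Polε therefore had more counts on the strand poor in G, in both experiments, while the Polα values stayed within 0.03 of 0. For the excess of A over T, the highest decile had a mean Polα track of 0.092 and 0.135 and the lowest decile -0.091 and -0.129. The corresponding Polε values were 0.028 and 0.066 in the highest and -0.051 and -0.076 in the lowest decile. Across bins, the sum track correlated with the excess of A and C over G and T at r = 0.28 in experiment 1 and 0.39 in experiment 2, and the difference track at -0.02 and -0.07. With the excess of G over C alone, the difference track correlated at 0.09 and 0.19. With the excess of A over T it correlated at 0.03 and 0.04. The difference track was thus not free of base composition.

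**Figure D2:**
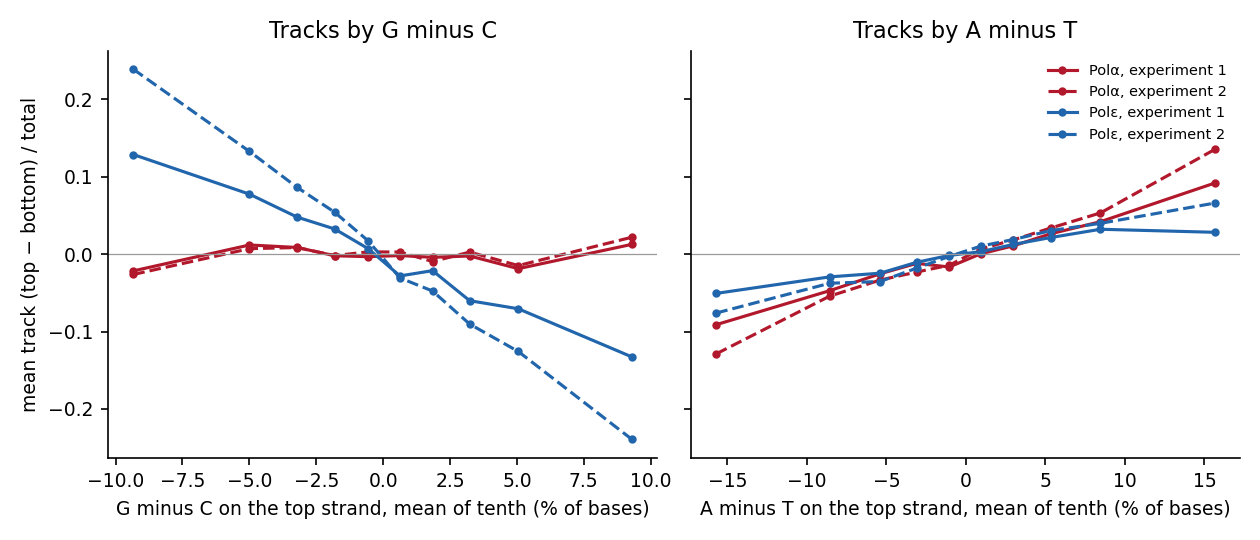
Mean track (y axis) by decile of bins ordered by G minus C (left panel) or A minus T (right panel) on the top strand (x axis, percent of bases), one line for each of Polα and Polε in experiments 1 and 2. With G minus C the Polε lines run from positive to negative (0.239 to -0.239 in experiment 2) while the Polα lines stay near 0, and with A minus T the Polα lines are the steeper.

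Genes are not spread evenly over the strands with respect to forks, and heights were compared by gene direction in bins with a Polδ track of at least 0.4 in size. In the 8088 bins whose net fork moved with the annotated gene, the mean height was 0.580 and 0.567 for Polα and 0.606 and 0.442 for Polε. In the 5238 bins where the fork moved against the gene, it was 0.534 and 0.511 for Polα and 0.636 and 0.492 for Polε. Polα was higher with the gene and Polε higher against it, in both experiments. Bins of top-strand genes had an excess of A over T on the top strand of -2.89 percentage points and bins of bottom-strand genes one of 2.67 points, so gene direction moved with base composition, and the part of each was not tested.

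Origins were then examined, since both tracks change sign there. They were called from the WT Polδ libraries alone, which gave 4205 peaks, of which 256 reached an efficiency of 40% and 254 of these lay away from chromosome ends. Between 0.9 and 3 kb from the peak bin, the mean height over the 254 origins was 0.550 in experiment 1 and 0.532 in experiment 2 for Polα, against 0.637 and 0.457 for Polε. Every origin had a positive height in all 4 libraries. The Polα values lay between the Polε values, and the difference of means was -0.006 (two-sided exact permutation test, p = 1, where the smallest p that 2 libraries against 2 allow is 0.333). Its sign turned with single libraries. Without Polε of experiment 1 the difference was 0.084 and without Polε of experiment 2 it was -0.096, whereas without Polα of experiment 2 it was 0.0029 and without Polα of experiment 1 it was -0.015. Heights declined with distance for both polymerases, from 0.569 for Polα and 0.575 for Polε at 1.5 kb to 0.201 and 0.233 at 12 kb, as means of both experiments.

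**Figure D3:**
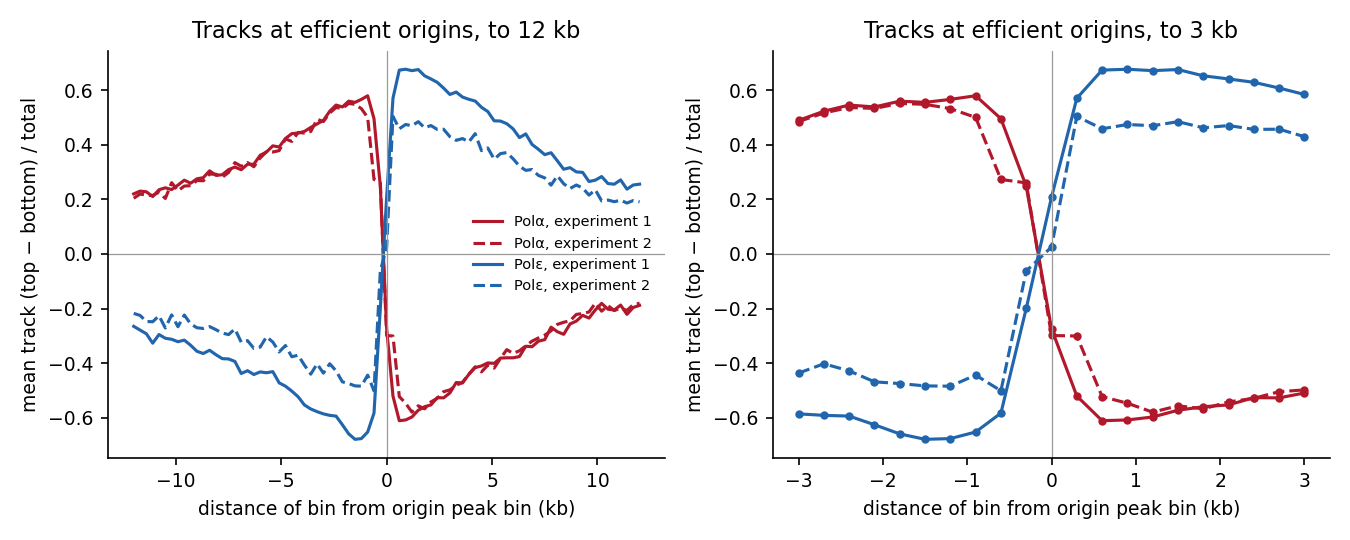
Mean track (y axis, -1 to 1 scale) by distance from the peak bin (x axis, kb) over 254 efficient origins, to 12 kb (left panel) and to 3 kb (right panel), one line for each of Polα and Polε in each experiment. Polα changes from positive to negative and Polε from negative to positive at the peak, and the Polα lines lie close together on the flanks (heights of 0.550 and 0.532) while the Polε lines are apart (0.637 and 0.457).

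The most efficient origin called from Polδ lay at 369901 to 370200 of chromosome III, between bqt3 and qcr9, and had an efficiency of 84.3%. In bin 368401 to 368700, on its left, Polα libraries held 1356 top-strand and 67 bottom-strand counts in experiment 1 and 423 and 33 in experiment 2, and Polε libraries 103 and 692 in experiment 1 and 87 and 608 in experiment 2. On the right, in bin 371401 to 371700, the Polα counts were 92 and 850 in experiment 1 and 56 and 525 in experiment 2, against 708 and 59 and then 620 and 195 for Polε. Both polymerases had thus changed strand between these bins. In the peak bin itself the Polα libraries held 135 top-strand and 697 bottom-strand counts in experiment 1 but only 15 and 6 in experiment 2, against 474 and 77 and then 39 and 0 for Polε. This bin is 76.0% A and T, and experiment 2 gave few counts there for both polymerases. The second, at 4088101 to 4088400 of chromosome I between mnl1 and tsc3, showed the same change of strand. In bin 4087501 to 4087800, on its left, the Polα tracks were 0.592 and 0.198 in experiments 1 and 2, against -0.901 and -0.812 for Polε. In bin 4088701 to 4089000, on its right, they were -0.954 and -0.694 for Polα, against 0.784 and 0.859 for Polε. In the bin next to the peak on the left, with 36 counts in Polα of experiment 2, the Polα tracks were 0.212 and -0.222, so there the experiments differed in sign. Over the 10 most efficient origins, heights at 0.9 to 3 kb ran from 0.719 to 0.834 in experiment 1 and from 0.661 to 0.818 in experiment 2 for Polα, against 0.738 to 0.865 and 0.527 to 0.610 for Polε. In experiment 1 the ranges overlapped, whereas in experiment 2 every Polα height was above every Polε height. That Polε library is the one that stood apart. Its mean height over all 254 efficient origins was likewise below that of Polα in experiment 2 (0.457 against 0.532).

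The point at which each track crosses 0 marks the initiation site as seen by that polymerase. A crossing of the track smoothed over 3 bins was found within 3 kb in all 4 libraries at 252 origins. The Polα crossing lay on average 6.48 bp to the right of the Polε crossing in experiment 1 (SD 360 bp) and to its left in experiment 2 (mean offset -17.4 bp, SD 489 bp). The mean offset of both experiments was -5.48 bp (two-sided exact permutation test of mean positions, p = 1). Under the 7 other settings of smoothing, search distance, runs and origin calls, Polα lay further left, with mean offsets between -29.1 and -11.5 bp, and p was 0.333 in each, the smallest that 2 libraries against 2 allow. The design therefore cannot show a difference at 0.05. Both crossings were within 300 bp, or 1 bin, of each other at 214 origins (84.9%) in experiment 1 and at 137 (54.4%) in experiment 2. For comparison, the crossing of Polα moved between experiments with an SD of 336 bp and that of Polε with an SD of 253 bp.

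At single origins the offset repeated in part. Its sign was the same in both experiments at 159 of 252 origins, with Polα to the right at 73 and to the left at 86, and r between experiments was 0.42. At 55 origins (21.8%) the offset had one sign and was larger than the shift of either polymerase between experiments, to the right at 29 and to the left at 26. The share that this rule would give without any difference between polymerases was not worked out. Offsets moved with the shared part of the tracks. Across origins, r between the offset and the sum track at the central pair of bins was 0.51 in experiment 1 and 0.54 in experiment 2. Both values come from the same counts, so this is a description of what the crossing depends on.

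**Figure D4:**
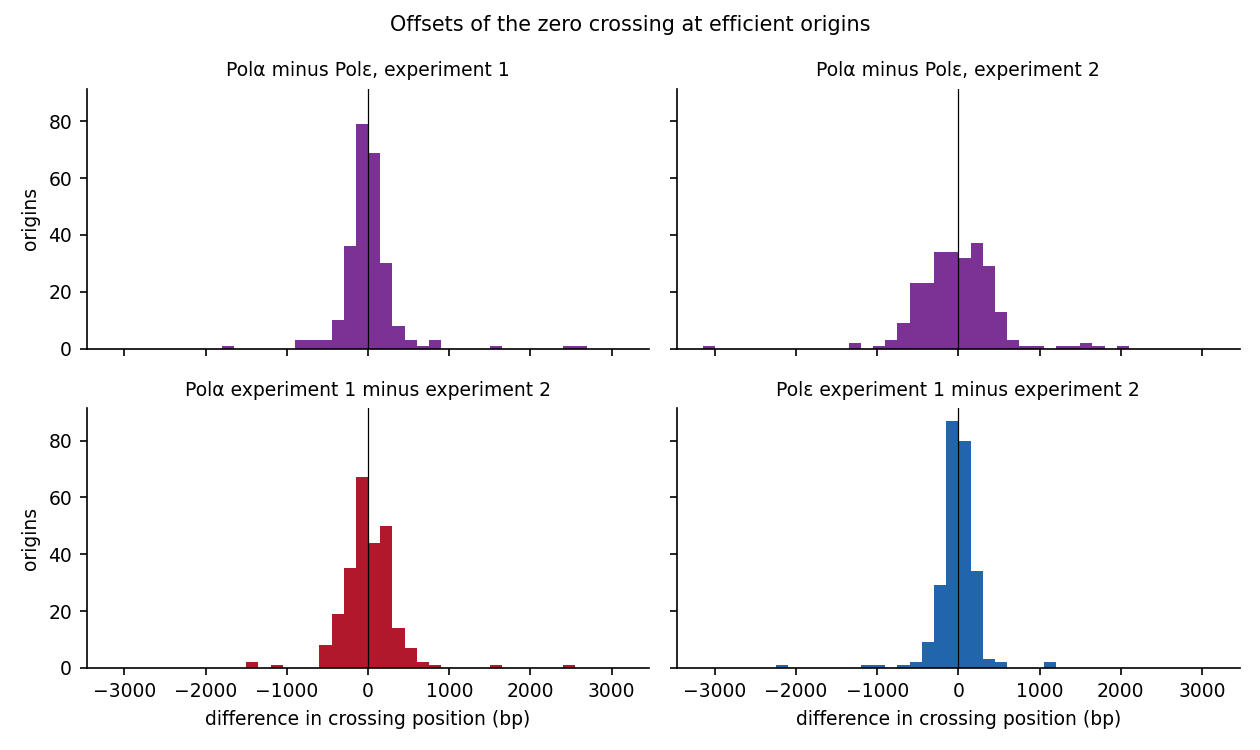
Histograms of differences in crossing position (x axis, bp) over 252 efficient origins (y axis, number of origins). The upper panels give Polα minus Polε in experiments 1 and 2, and the lower panels the shift between experiments of Polα and of Polε. All 4 centre near 0, and the Polα minus Polε panel of experiment 2 is the widest (SD 489 bp).

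In a test of each origin (limma, Benjamini-Hochberg adjustment), 2 of 252 crossings differed between Polα and Polε, or 0.794%, and 45 at an unadjusted p under 0.05. With the experiment as a block, 4 were called, and without smoothing none. One was the origin at 2137201 to 2137500 of chromosome II, between mat3-Mc and emc3, beside the silent mating-type cassettes. Counted from the start of its peak bin, the Polα crossings lay at -9.60 and 89.9 bp and the Polε crossings at -1525 and -1451 bp. The offset was 1528 bp (SE 102 bp, adjusted p = 0.00522 by limma). Mating-type sequence occurs at more than one place, and the handling of reads that map to several places is not given. Its part in this offset was not tested. The other was at 1079401 to 1079700 of chromosome I, over ptl3, a triacylglycerol lipase gene. There Polα crossed at 2659 and 1884 bp and Polε at -19.0 and 143 bp, an offset of 2209 bp (SE 265 bp, adjusted p = 0.0461 by limma). The next by adjusted p, at 1275901 of chromosome I over rpl3703, a ribosomal protein gene, had Polα at -326 and -404 bp and Polε at 496 and 919 bp, with an adjusted p of 0.0807 (limma).

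Heights were tested per origin in the same way, and 1 of 254 differed, or 0.394% (11 at an unadjusted p under 0.05). It was again the origin beside mat3-Mc, with a height of 0.675 and 0.577 for Polα against 0.281 and 0.20 for Polε. Polα was higher by 0.386 (SE 0.098, adjusted p = 0.0230 by limma). At 2139901 of chromosome I, between pnk1 and ipp1, the heights were 0.421 and 0.396 for Polα and 0.780 and 0.591 for Polε, and at 254101 of chromosome III they were 0.505 and 0.568 for Polα and 0.338 and 0.201 for Polε. Both had an adjusted p of 0.461 (limma). The count was 141 without Polε of experiment 1, of which 130 had Polα higher, and 132 without Polε of experiment 2, of which 125 had Polα lower. It was 0 without either Polα library.

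Close to the peak, the order of the polymerases depended on how origins were called. At origins called from Polδ, the height over the central pair of bins was 0.261 and 0.279 for Polα, against 0.204 and 0.044 for Polε. With origins called from all 3 polymerases together it was 0.251 and 0.124 for Polα against 0.373 and 0.335 for Polε, so the direction reversed. It was likewise reversed with origins called from Polδ and Polε libraries of 2×Polδ and 4×Polδ. Both of these alternatives were added for the central bins after seeing the data. No order is therefore drawn at the peak. One bin further out, Polα was lower under each of these calls. With Polδ-called origins, its height there was 0.507 and 0.286, against 0.576 and 0.502 for Polε. In 2×Polδ of experiment 1 Polα was higher in that bin (0.605 against 0.575). It was lower in 2×Polδ of experiment 2 and in both experiments of 4×Polδ. At the third bin, WT Polα was lower in experiment 1 and higher in experiment 2 under each call.

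Between efficient origins, forks converge. Zones bounded by neighbouring efficient origins with none of 20 to 40% between them numbered 149, of which 148 were measured, with a median length of 28.2 kb. At the zone ends, the mean height was 0.507 and 0.469 for Polα against 0.597 and 0.436 for Polε (two-sided exact permutation test, p = 1). The turning point, at which the line through the middle of the zone reads 0, was found in all 4 libraries in 139 zones. On average it lay at 49.2% and 49.1% of the zone for Polα and at 50.3% and 50.3% for Polε, so the mean offsets were -1.09% and -1.14% of the zone (exact permutation test, p = 0.333, the smallest possible). The size depended on the origin calls, since the mean of both experiments was -1.11% here but -0.44% with origins from 3 polymerases (-0.05% in experiment 1), -0.30% with scaled efficiencies and -0.41% with origins from 2×Polδ and 4×Polδ.

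Single zones differed more, and in a repeatable way. The offset of Polα from Polε had an SD of 10.7% of the zone in experiment 1 and 11.4% in experiment 2, whereas the turning point of Polα moved between experiments with an SD of 4.44% and that of Polε with 3.14%. Offsets of experiments 1 and 2 correlated at r = 0.86 across 139 zones, and the sign was the same in 119. In 82 zones (59.0%) the offset had one sign and was larger than the shift of either polymerase between experiments, to the right in 41 and to the left in 41. Here, too, the share that the rule would give without any difference was not worked out. In one zone of chromosome I, bounded by peak bins that end at 1573800 and start at 1664401, the Polα turning point lay at 21.5% and 22.4% of the zone and that of Polε at 48.0% and 48.5%. Polα therefore turned 24.1 kb and 23.7 kb further left (offsets of -24.1 and -23.7 kb). In the zone from 1975200 to 2025301 of chromosome I, the Polα turning points at 88.1% and 91.8% lay right of the Polε ones at 66.7% and 66.1%. Both zones were picked after their values were seen. Zone offsets moved with base composition, since r with the mean excess of A and C over G and T was -0.52 and -0.51, with the share of bins in top-strand over bottom-strand genes 0.25 and 0.26, and with zone length -0.03 and 0.00. The part of composition in the offsets was not tested.

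Total counts were compared last. Scaled to the median bin of each library, the log2 ratio of Polα to Polε had an SD of 0.353 in experiment 1 and 0.416 in experiment 2. It was past 2-fold in 602 bins (1.44%) in experiment 1 and in 1337 (3.19%) in experiment 2. Both experiments were past 2-fold in one direction in 84 bins, 52 of them higher in Polα and 32 lower, and r between experiments was 0.36. By comparison, Polα of experiments 1 and 2 differed past 2-fold in 3960 bins and Polε in 5299. No bin was called (0%) among 41864 in the unblocked test of totals (edgeR's quasi-likelihood test, Benjamini-Hochberg adjustment), with 1370 at an unadjusted p under 0.05. DESeq2 called 358 and edgeR with the experiment as a block 1. In windows of 3 kb, the test called none of 4192 without the block and 541 (12.9%) with it, an alternative added after seeing the data. Without Polε of experiment 1 the count was 238, and without Polα of experiment 1 it was 29.

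The bin called with the block was again the last of chromosome III, over an rRNA gene, where the scaled total was 3.45 and 2.87 in Polα against 0.591 and 0.614 in Polε. The log2 ratio was 2.39 (SE 0.21, adjusted p = 1 without and 0.0417 with the block, edgeR). The other named bins each overlapped a protein-coding gene and a noncoding RNA gene, and none passed the test. Over scs7 (4057201 to 4057500 of chromosome I), the scaled totals were 0.797 and 0.792 for Polα against 1.76 and 1.70 for Polε. The Polε track there was -0.919 and -0.801 while that of Polα was 0.249 and 0.40. Over pyr1, the pyruvate carboxylase gene, at 2190601 of chromosome II, the totals were 0.851 and 0.960 for Polα against 1.91 and 2.20 for Polε. Over srw1, an activator of the anaphase-promoting complex, at 4678801 of chromosome I, they were 0.638 and 0.617 against 1.60 and 1.37. The bin at 4341901 of chromosome I had 1.84 and 1.93 for Polα against 0.938 and 0.827 for Polε. In each of these bins all Polα values lay on one side of all Polε values. The bins were picked by smallest adjusted p and one sign in both experiments, which favours such a separation. It is therefore no separate evidence of a difference.

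Totals followed base composition in experiment 2 for both polymerases. In the decile of bins richest in A and T, with a mean of 73.1%, the median scaled total was 0.962 in experiment 1 and 0.496 in experiment 2 for Polα, against 0.913 and 0.395 for Polε. At 58.4% A and T it was 0.972 and 1.06 for Polα and 1.02 and 1.15 for Polε. Over long terminal repeats, the median log2 ratio of Polα to Polε was 0.15 and 0.31, and over bins without a gene 0.03 and 0.28. In the outer 30 kb of chromosomes it was -0.25 in experiment 1 and 0.11 in experiment 2, so the direction turned between experiments. Over rRNA genes it was -0.11 and 0.20.

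**Figure D5:**
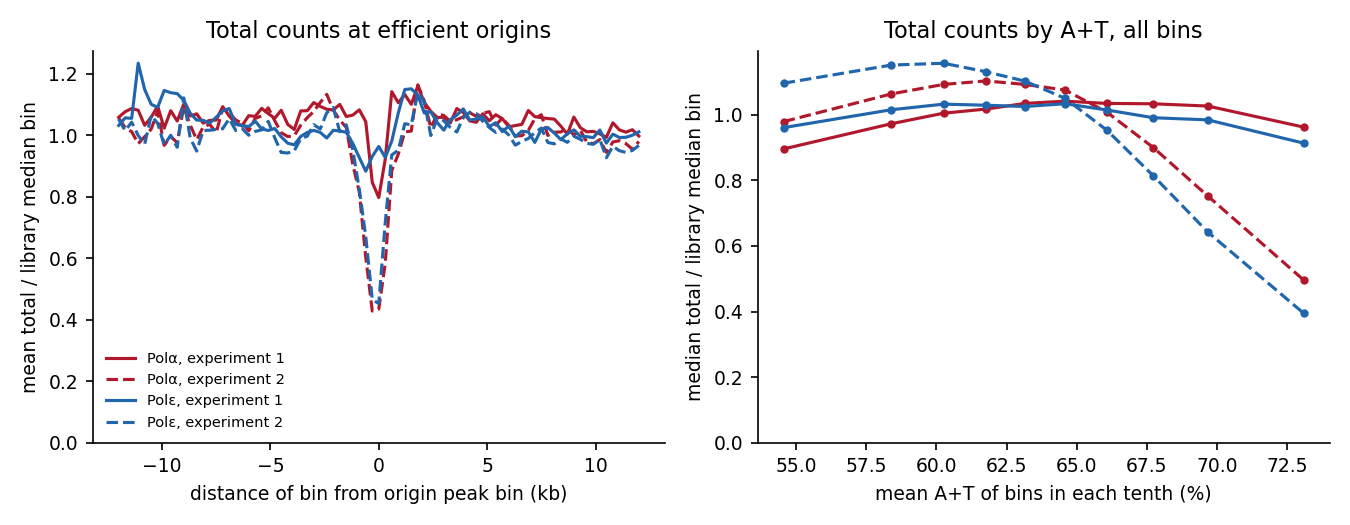
Total counts scaled to the median bin of each library (y axes), for Polα and Polε in both experiments, by distance from the peak bin of efficient origins (left panel, x axis in kb) and by share of A and T in deciles of bins (right panel, x axis in percent). In experiment 2 the totals of both polymerases are lowest at the peak and in the bins richest in A and T (0.496 for Polα and 0.395 for Polε), and in experiment 1 the same decile reads 0.962 and 0.913.

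Around origins, the 5 bins at the peak held fewer counts than the flank at 3 to 6 kb in every library. The log2 ratio was -0.16 and -0.84 for Polα against -0.13 and -0.65 for Polε, so it differed more between experiments than between polymerases. The difference of means was -0.11 (two-sided exact permutation test, p = 0.667). It was 0.23 without Polα of experiment 2 and 0.15 without Polε of experiment 1, but -0.45 without Polα of experiment 1 and -0.37 without Polε of experiment 2. Peak bins of origins are rich in A and T, with 66.7% to 78.7% in the 10 most efficient, and the part of composition in these ratios was not tested.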

How the data were processed

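Counts of ribonucleotides on the top and bottom strands in 300 bp bins were deposited by the authors, 1 pair of strands per sequencing run and without normalization. Per the submitters' processing notes, reads were mapped with Bowtie2 to ASM294v2. For the Bowtie2 version, the mapping filter and multi-mapping reads, the sources used here give nothing. Genes and base composition were taken from ASM294v3, whose chromosomes imply the same numbers of bins. The correlation of the share of A and T with total counts in experiment 2 was strongest at a lag of 0 bins for both polymerases. In experiment 1 it was weak, and for Polε it was strongest 1 bin away. The deleted rnh201 bins were empty. No sequence is printed.

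Runs of experiment 1 were summed, which gave 2 libraries per strain with 16062711 to 38620929 counts. Single bins hold far fewer (medians of 379 to 872), and the spread between experiments exceeded counting error. Python 3.11.15 (pandas 2.3.3, numpy 2.4.6) gave the tracks. Bins with at least 10 counts in every library entered edgeR 4.0.16 under R 4.3.3 (quasi-likelihood test; terms for library, strand, and strand by polymerase, or scaled totals), and origins with limma 3.58.1. Adjusted p-values are Benjamini-Hochberg, with a threshold of 0.05. Origins were called from the WT Polδ tracks alone, with the steps of the study, which combined all 3 polymerases (moving average of 3 bins, differentials, peaks under the 30th percentile dropped, maxima 4 bins apart split). Library means were set against each other by exact permutation, two-sided.

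The deviations of Polα and Polε libraries from their strain means correlated within an experiment (r = 0.66 for tracks, 0.80 for log2 totals, 2 pairs), and the labels give the experiment, so a fit with the experiment as a block was run beside each test. Other alternatives were DESeq2 1.42.0, other count minimums, TMM and library-size scaling, 3 kb windows, all 18 or 12 libraries in the fit, the first run only, other origin calls, flanks and smoothing, and each library left out. In 41864 simulated bins, the mirror test recovered 8 of 50 changes of 2 on the log2 scale and 39 of 50 of 3. The strand test recovered 11 and 43, and the total test 48 and 50. Only a small part of the simulated bins was changed, whereas the strand test called 65.1% of the real bins. No experiment effect was simulated either, so these rates do not give the power of the tests on the real libraries. In 252 to 254 simulated origins, shifts of 4 residual SD were recovered for 45 of 50 heights and 43 of 50 crossings.

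The members and lists were chosen with earlier results of these data known. Named items are the 5 bins or origins per test with the smallest adjusted p and one sign in both experiments (bins at least 3 kb apart), the 10 most efficient origins, and polymerase, marker and control genes. Zones named singly were picked after their values were seen. Centromeres and the mating-type region were not analysed here as classes. A result at 1 origin, from a test of the contrast between genotypes added after seeing the data, is not reported here.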

Additional observations from a re-analysis of the deposited data

How the results depend on the processing

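The strand test called 27252 of the 300 bp bins, between 21537 and 33598 under its alternatives at that size (21537 to 28670 with a library left out), and 86.1% of 3 kb windows (84.7% with the replicate block) against 65.1% of bins. The mean offset of zone turning points (-1.11%) kept its sign under the alternatives run but was -0.44% with origins from 3 polymerases, -0.30% with scaled efficiencies and -0.41% with origins from 2×Polδ and 4×Polδ. The mirror test called 1643 bins, and 13147 with DESeq2, 12441 with 18 libraries, 49 to 8605 with a library left out, 371 of 4192 windows of 3 kb and 821 with the replicate block added to the windows. The total test called 0 bins, and 358 with DESeq2, 5 with 18 libraries, 1 with the replicate block, 0 to 238 with a library left out and 541 windows of 3 kb with the block. Of 1643 mirror calls, 1014 were shared with the 1323 under the block (61.7% and 76.6%). The crossing test called 2 origins, and 4 with the replicate block, 30 with 12 libraries, 20 with 5-bin smoothing, 4 with the first run only, 1 with scaled efficiencies, 1 within 6 kb, 0 without smoothing, 0 with origins from 2×Polδ and 4×Polδ and 1 to 13 with a library left out. The amplitude test called 1, and 7 with 12 libraries, 0 with a flank to 6 kb, 0 with those origins and 0 to 141 with a library left out. The block changed no other call by more than 1.5 times. The amplitude difference at origins (-0.006) was 0.075 in experiment 2 alone, 0.0029 without Polα of experiment 2, and from -0.096 to 0.084 with a library left out. At zones (-0.029) it was 0.033 in experiment 2 alone and -0.11 to 0.052. The mean crossing offset (-5.48 bp) was 6.48 bp in experiment 1 alone, -17.4 bp in experiment 2 alone and -16.7 to 5.79 bp with a library left out. It was -29.1 bp with 5-bin smoothing, -27.5 bp within 6 kb, -22.6 bp with origins from 3 polymerases, -18.6 bp without smoothing, -18.4 bp with origins from 2×Polδ and 4×Polδ, -14.6 bp with scaled efficiencies and -11.5 bp with the first run only. The core total (-0.11) ran from -0.45 to 0.23. The r of mirroring (-0.69) was -0.49 in experiment 2 and -0.85 smoothed over 3 bins. The central height difference at origins (0.146) was -0.167 with origins from 3 polymerases and -0.241 with origins from 2×Polδ and 4×Polδ. The causes were not tested. Windows with the block, origins from other genotypes and, for the central height, origins from 3 polymerases were added after seeing the data. With 2 libraries per strain, no exact test can pass p = 0.05. In simulated data with changes of 1 on the log2 scale, the mirror test recovered 0 of 50 bins. The strand test recovered 1 of 50. The total test recovered 12 of 50 with 5 false calls, and 45 of 50 with 12 false calls under the block. Counts for the block were drawn with the spread of the blocked fit, so 12 and 45 are not from like data. Few bins were changed and no experiment effect was simulated, so these rates do not give the power on the real libraries.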
